A study of Mus musculus with 4 samples.

Results

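Aggregating proteoglycans and the genes of their hyaluronan scaffold were followed in single cells of the ascending aorta of mice with aortic dissection, with and without paquinimod. The 7 genes were taken by symbol from the 55357 genes in the deposited files: Vcan, Acan, Hapln1, Has1, Has2, Cd44 and Tnfaip6. Their UMIs (unique molecular identifiers, which count captured RNA molecules) were summed over the cells of each library and cell class, and the groups were compared over libraries. The dissection group (AD, 2 libraries) came from male wild-type mice that drank BAPN, an inhibitor of lysyl oxidase, at 1 g/kg/d for 4 weeks from 3 weeks of age. The second group (AD_ABR, 2 libraries) received the same BAPN and paquinimod, a compound known to bind S100A9, at 10 mg/kg/d into the stomach until the end of the experiment. Both groups therefore carry the BAPN treatment, and libraries of untreated mice were not analysed here. The labels do not say whether the 2 libraries of a group came from separate animals, so p-values measure only the spread between these libraries, which may be technical.

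Hyaluronan is a long, unsulfated sugar chain that is spun out at the cell surface by hyaluronan synthases. Versican (Vcan) and aggrecan (Acan), core proteins that carry chondroitin sulfate chains, bind it in large hydrated aggregates, and the link protein Hapln1 locks core protein and hyaluronan together. TSG-6, the product of Tnfaip6, moves heavy chains of inter-alpha-inhibitor onto hyaluronan in inflamed tissue, and Cd44 is the main receptor for hyaluronan on the cell surface. In the aorta, versican and aggrecan are known to accumulate in the diseased medial wall.

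The genes lie on 5 chromosomes of GRCm38 (GENCODE M21) and all code for protein. Hapln1 (chr13:89539796-89611652, plus strand) and Vcan (chr13:89655312-89742509, minus strand) are neighbours on chromosome 13, and Tnfaip6 (chr2:52038009-52056686, plus) and Cd44 (chr2:102811141-102901665, minus) share chromosome 2. Acan lies at chr7:79053483-79115099 (plus), Has1 at chr17:17843323-17855205 (minus) and Has2 at chr15:56665627-56694539 (minus).

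Has1 and Tnfaip6 hold most of the changes described below, and the bases before their starts are shown for that reason. RefSeq promoter entries on GRCm38.p6 were found for 6 of the 7 genes. The stretches below are those parts of the entries that lie before every annotated start, written 5′ to 3′ on the gene's strand, with motif matches in capitals. The Has1 stretch is at chr17:17855206-17855438 on the minus strand, and the Tnfaip6 stretch is at chr2:52037863-52038008 on the plus strand.
Has1: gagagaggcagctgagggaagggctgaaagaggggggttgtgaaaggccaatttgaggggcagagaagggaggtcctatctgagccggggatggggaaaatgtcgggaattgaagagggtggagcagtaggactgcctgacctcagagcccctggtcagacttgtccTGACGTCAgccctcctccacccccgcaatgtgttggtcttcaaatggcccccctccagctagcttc
Tnfaip6: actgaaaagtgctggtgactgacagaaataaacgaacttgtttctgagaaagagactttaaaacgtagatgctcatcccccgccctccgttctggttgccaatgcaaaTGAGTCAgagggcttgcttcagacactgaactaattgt
Motifs were searched on both strands as AP-1 (TGANTCA), the cAMP response element (TGACGTCA), the TATA box (TATAAA) and kappa-B. In the 233 bases of Has1 the capitals mark 1 cAMP response element, TGACGTCA, which begins at base 168. Windows of that length held this motif in 1.33% of 32544 different promoters. In the 146 bases of Tnfaip6 they mark 1 AP-1 match, TGAGTCA, which begins at base 109, and 3.83% of promoters held AP-1 in a window of that length. The other 3 motifs had no match in either stretch. The 250 bases of Vcan and Cd44 held none of the 4 motifs, and Acan held 1 kappa-B match. A match describes the letters and is no site or cause.

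The 4 libraries kept 8451 to 9872 cells and 66197717 to 87522686 UMIs, with 22 to 38 cell barcodes shared by any pair of libraries. Median depth was 5268 and 7185 UMIs per cell in AD and 9452 and 8208 in AD_ABR. The ribosomal RNA sequence Rn18s-rs5 took 5.34% and 3.23% of UMIs in AD and 1.83% and 1.37% in AD_ABR. Depth and this share thus moved with the groups, and their part in the results was not tested. Cells fell into 33 clusters, made without the 7 genes, and clusters were named from fixed marker lists with the ending -like; the authors may have used other names. Smooth muscle-like cells held the 8 markers of their list at a summed 41424 to 53915 CPM per library, against 1759 to 4517 in all other cells (CPM is the UMI count of a gene scaled by all UMIs of the same cells). For the 10 fibroblast markers the ranges were 38602 to 48815 and 11928 to 17430 CPM, and for the 9 endothelial markers 6030 to 6428 and 87.7 to 208 CPM. Clusters that met no list, or whose leading genes also fitted another, keep their number: cluster 2 led by Fmod, Inmt and Cpz, cluster 4 by Pex5l, Dio2 and Prss12, cluster 7 by Arg1, Ppbp and Trem2, cluster 8 by Tnnt2, Itih4 and Des, cluster 13 by Rgs5, Lypd8l and Prss12, cluster 14 by Col10a1, Col8a1 and Ddah1, and cluster 15 by Cxcl5, Chl1 and Lif. In clusters 2 and 4 fibroblast markers lay 1.36 and 0.66 log2 units above other cells, and in cluster 13 smooth muscle markers lay 0.96 above. Cluster 7 held macrophage markers, 3.38 log2 units above other cells, beside platelet genes.

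Over all kept cells, each AD_ABR library lay below each AD library for 5 of the 7 genes, but no difference passed the test. The share of all genes whose libraries part in this way was not counted, so this count has no background. Values for the 4 libraries are given throughout in the order AD replicate 1, AD replicate 2, AD_ABR replicate 1, AD_ABR replicate 2. Cd44 stood at 294, 201, 78.2 and 119.7 CPM (log2 fold change, AD_ABR minus AD, -1.22 ± 0.28 SE, edgeR quasi-likelihood test, adjusted p = 0.0701). Has2, a hyaluronan synthase, stood at 23.4, 32.2, 3.77 and 10.2 CPM (-1.89 ± 0.49, edgeR adjusted p = 0.0835). Both genes were lower in each AD_ABR library than in either AD library. Tnfaip6 lay at 211, 285, 98.3 and 149.7 CPM (-0.90 ± 0.27, edgeR adjusted p = 0.103). Has1, another hyaluronan synthase, lay at 87.9, 145, 38.4 and 64.0 CPM (-1.09 ± 0.35, edgeR adjusted p = 0.115). Vcan lay at 230.0, 231, 158 and 175 CPM (-0.37 ± 0.13, edgeR adjusted p = 0.141). For these 3 genes, too, the groups did not overlap. Acan, at 31.0, 29.0, 37.3 and 27.5 CPM (0.21 ± 0.17, edgeR adjusted p = 0.423), and Hapln1, at 5.29, 1.73, 2.29 and 2.46 CPM (-0.44 ± 0.51, edgeR adjusted p = 0.591), overlapped between the groups.

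**Figure D1:**
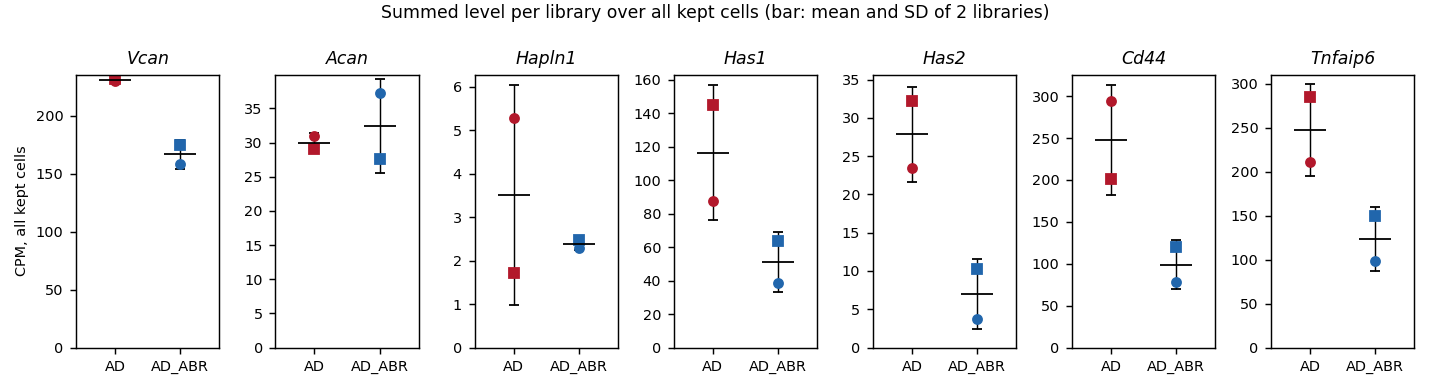
Summed level of each of the 7 genes over all kept cells, in CPM on axes that start at 0, with 1 point per library and bars at the mean and SD of the 2 libraries of a group. Cd44, Has2, Tnfaip6, Has1 and Vcan are lower in both AD_ABR libraries, while Acan and Hapln1 overlap between groups.

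With edgeR, 0 of the 7 genes were called at an adjusted p under 0.05 over all kept cells, where 3.38% of 20196 genes were called. Their unadjusted p was under 0.05 for 5, beside 6321 of the 20196 genes. DESeq2 called 4, namely Cd44, Tnfaip6, Has2 and Has1, beside 1646 genes that rose and 2057 that fell. The median log2 fold change of the 7 was -0.90, beside -0.03 for all genes tested. Where AD replicate 2 was left out, edgeR did call members, and the 3.38% does not apply to that fit.

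A sum over all cells mixes levels within a class with how many cells of each class a library held. Cluster 15, high in Has1, Has2 and Tnfaip6, held 313 and 528 cells in AD against 17 and 14 in AD_ABR. For neutrophil-like cells, high in Cd44, the numbers were 1634 and 232 against 21 and 10, and for smooth muscle-like cells 763 and 1667 against 3346 and 2662. With the classes that were tested weighted alike in every library, the log2 ratio of Cd44 (AD_ABR over AD) was -0.38. As observed over all cells, untested classes included, it was -1.32. For Has2 the values were -0.78 and -1.99. Has1 was at -0.99 weighted alike and -1.19 as observed, the lowest weighted value of the 7. For Tnfaip6 the values were -0.62 and -0.999, for Vcan -0.26 and -0.47, for Hapln1 -0.39 and -0.56, and for Acan -0.37 and 0.11. The 2 values of a gene thus differ both in weights and in the cells they cover. As observed in the tested classes alone, the ratio was -1.10 for Cd44, -0.99 for Has2, -1.09 for Has1 and -0.68 for Tnfaip6. It was -0.10 for Vcan, 0.20 for Hapln1 and -0.04 for Acan. These ratios are descriptions with no test.

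Within classes the direction was mostly the same, and every call was a fall. Tests were made in the 12 classes that no library held with under 50 cells, which gave 84 pairs of gene and class, of which 55 passed the filter on low counts. Of those 55 pairs, 48 were lower and 7 higher in AD_ABR, with a median log2 fold change of -0.61. An adjusted p under 0.05 was reached by 6 pairs, all lower in AD_ABR, which is 10.9% of the pairs beside 2.78% of 129479 tests of a gene in a class. DESeq2 called 10 pairs, and the 2.78% is the share of the edgeR fit alone. The count also changed when single libraries were left out, and so did the number of genes of any kind called. Members were called in smooth muscle-like cells (1 of 6 tested, where 13% of genes were called), endothelial-like cells (1 of 3, 5.54%), cluster 7 (1 of 4, 4.56%), cluster 13 (1 of 5, 1.53%), cluster 4 (1 of 6, 1.52%) and cluster 2 (1 of 5, 1.13%). The share in smooth muscle-like cells was near its background.

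In the remaining 6 classes edgeR called no member and few genes of any kind. Fibroblast-like cells had 0 of 6 tested members called (0.273% of genes). An unadjusted p under 0.05 was reached by 2 of them, beside 2301 of 14310 genes. DESeq2 called Has1 and Tnfaip6 there, beside 81 genes that rose and 154 that fell. Cluster 14 had 0 of 6 (0.0291%, 2 unadjusted beside 869 of 10311 genes). DESeq2 called Has1 in that cluster, beside 22 genes that rose and 30 that fell. Macrophage-like cells had 0 of 4 (0.028%, 2 unadjusted beside 1666 of 10716 genes). Cluster 8 had 0 of 4 (0.161%, 2 unadjusted beside 980 of 8717). Dendritic-like cells had 0 of 3 (0.829%, 1 unadjusted beside 1256 of 9407). Schwann-like cells had 0 of 3 (0.0986%, 1 unadjusted beside 419 of 5070). DESeq2 called no member in macrophage-like, dendritic-like or Schwann-like cells or in cluster 8.

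Among the classes tested, Has1 was highest in fibroblast-like cells. Its level there was 325, 402, 174 and 207 CPM, followed among the classes tested by cluster 4 at 85.9, 173, 63.6 and 55.6 CPM and cluster 2 at 130.3, 99.6, 55.6 and 64.3 CPM. The last 2 classes overlapped in level and cannot be ranked. In cluster 14 Has1 stood at 26.0, 89.8, 13.96 and 13.2 CPM, and in the other 8 classes tested no library exceeded 13.2 CPM. Fibroblast-like cells held 44.5% (exact 95% binomial interval 43.2 to 45.8) and 50.5% (49.7 to 51.4) of all Has1 UMIs in AD, and 60.7% (59.0 to 62.4) and 70.9% (69.7 to 72.1) in AD_ABR. Intervals cover counting error only.

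Between the groups Has1 was lower in AD_ABR in all 7 classes tested, with log2 fold changes from -2.17 to -0.86. Libraries of the groups did not overlap in any of them, and the share of all genes without overlap was not counted. The untested cluster 15 went the other way, at 198, 267, 338 and 721 CPM, higher in both AD_ABR libraries on 17 and 14 cells. Has1 fell in cluster 2 by 0.86 ± 0.17 on the log2 scale, 1.81-fold (edgeR adjusted p = 0.0263). It also fell in smooth muscle-like cells, where it is scarce, from 3.86 and 4.58 to 1.55 and 2.11 CPM (-1.18 ± 0.28, edgeR adjusted p = 0.0101). In fibroblast-like cells the difference was -0.91 ± 0.16 and did not pass (edgeR adjusted p = 0.0943), nor did cluster 4 (-1.12 ± 0.35, edgeR adjusted p = 0.223). The call in cluster 2 was lost without AD_ABR replicate 1 (adjusted p = 0.444) or replicate 2 (0.154), and that in smooth muscle-like cells was lost without AD_ABR replicate 1 (0.0916).

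The Has1 level of smooth muscle-like cells as a share of its level over all cells of the same library was 4.40%, 3.15%, 4.04% and 3.30%. On the same scale the fibroblast genes were at 3.63%, 2.71%, 3.22% and 2.84% (Dpt), 3.49%, 2.28%, 1.55% and 1.58% (Dcn), 9.48%, 5.80%, 4.94% and 4.71% (Pdgfra), and 31.8%, 22.1%, 28.1% and 22.8% (Col1a1). Dpt and Col1a1 overlapped between the groups, as Has1 did, while Dcn and Pdgfra were lower in both AD_ABR libraries. The part of free RNA in the droplets in this call was not tested. When smooth muscle-like cells were split by cluster after the data were seen, Has1 did not pass in cluster 0 (-1.37 ± 0.49, edgeR adjusted p = 0.0998) or cluster 1 (-0.93 ± 0.29, 0.0645), with fold changes near that of the class (-1.18). Fibroblast-like cells were split in the same way. In cluster 6 Has1 stood at 518, 527, 227 and 239.6 CPM and fell by 1.16 ± 0.14 on the log2 scale (edgeR adjusted p = 0.0488, where 0.112% of genes were called). In cluster 3 it stood at 215, 251, 144 and 176 CPM (-0.53 ± 0.16, adjusted p = 0.163). The difference between these changes did not pass its own test (adjusted p = 0.517, 0 of 13361 genes called; unadjusted p = 0.00402).

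**Figure D2:**
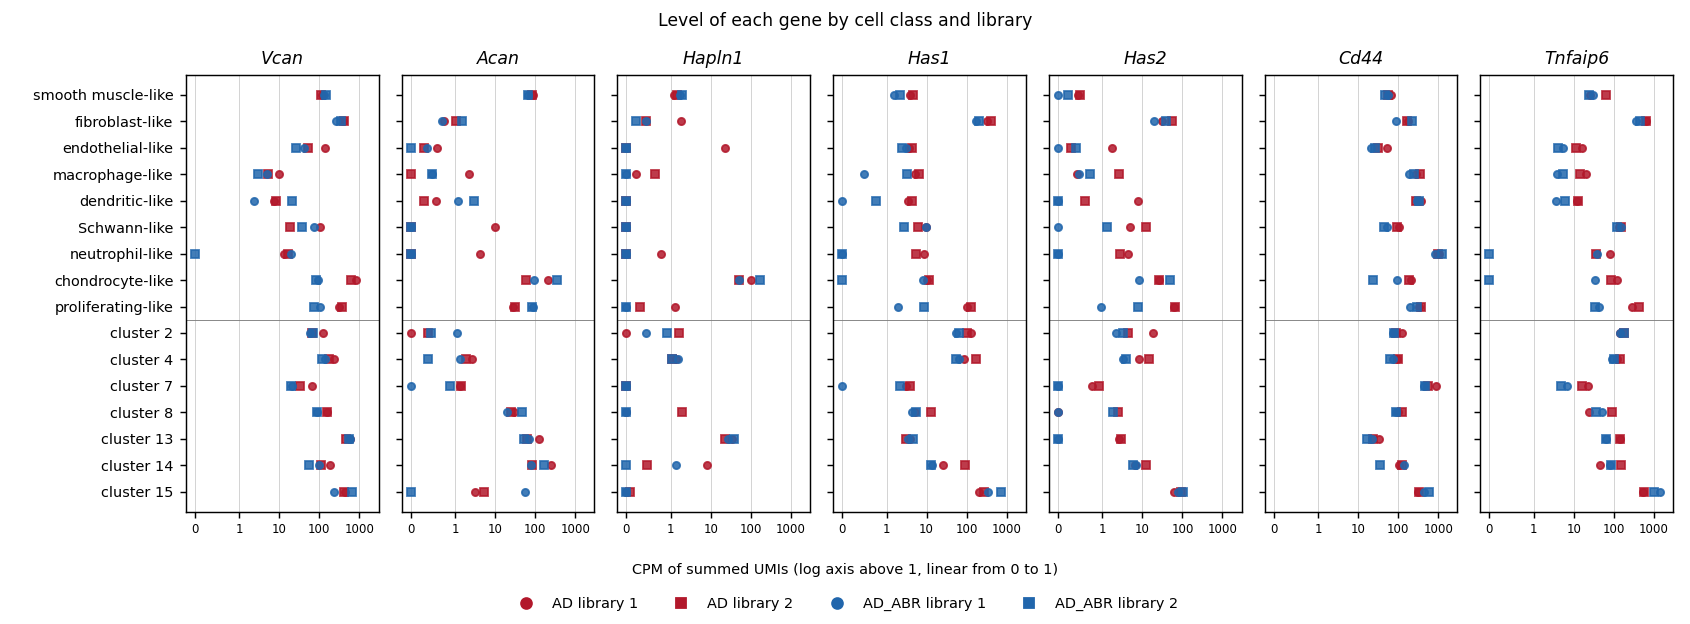
Level of each gene in each of the larger cell classes, with 1 point per library and colour for the group, in CPM on an axis that is logarithmic above 1 and linear from 0 to 1. Has1 and Tnfaip6 are high in fibroblast-like cells and cluster 15, Has2 in these and, in AD, in proliferating-like cells. Acan is spread over smooth muscle-like, chondrocyte-like and proliferating-like cells and clusters 13 and 14, and Cd44 is high in neutrophil-like cells and cluster 7.

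Has2 was sparse, with 5579 UMIs in 2074 cells. Levels were 31.1, 54.7, 19.5 and 38.5 CPM in fibroblast-like cells, where the groups overlapped (-0.55 ± 0.44, edgeR adjusted p = 0.597). Has2 fell in cluster 4, from 8.03 and 14.8 to 3.19 and 3.88 CPM (-1.69 ± 0.32, 3.23-fold, edgeR adjusted p = 0.0233), a call kept in all 8 alternatives run for that cluster. None of these 8 changed the cell filters or the clustering. Cluster 2 stood at 18.3, 4.40, 2.25 and 3.19 CPM without passing (-1.63 ± 0.54, edgeR adjusted p = 0.203). Has2 lay below all of these in smooth muscle-like cells, at 0 to 0.493 CPM.

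Most Has2 of the AD libraries lay in classes too rare in AD_ABR to test. Proliferating-like cells held 43.3% (40.8 to 45.8) and 22.9% (21.3 to 24.5) of Has2 UMIs in AD, and cluster 15 held 28.8% (26.5 to 31.1) and 36.7% (35.0 to 38.6). Together with the other untested classes this came to 77.4% and 61.4% in AD but 10.9% and 7.23% in AD_ABR, where fibroblast-like cells held 69.5% (64.1 to 74.5) and 82.3% (79.6 to 84.7). Levels in cluster 15 were 62.1, 92.3, 77.7 and 102 CPM and overlapped between groups, the AD_ABR values resting on 17 and 14 cells. Proliferating-like cells, on 379, 374, 46 and 79 cells, stood at 61.1, 66.1, 0.969 and 7.98 CPM. This class joins 2 clusters, of which cluster 17 carried the Has2 (65.8, 71.3, 1.41 and 20.2 CPM), and cluster 24, where macrophage markers came next after those of proliferation, carried almost none (0, 1.37, 0 and 0 CPM). Cluster 17 had 27 cells in each AD_ABR library, and its Has2 values there rest on 1 and 10 UMIs, in 3.70% of those cells. Has2 overlaps its antisense gene Has2os, which had 137, 296, 102 and 192 UMIs of its own, and whether counting used the strand is not given in the sources used here.

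**Figure D3:**
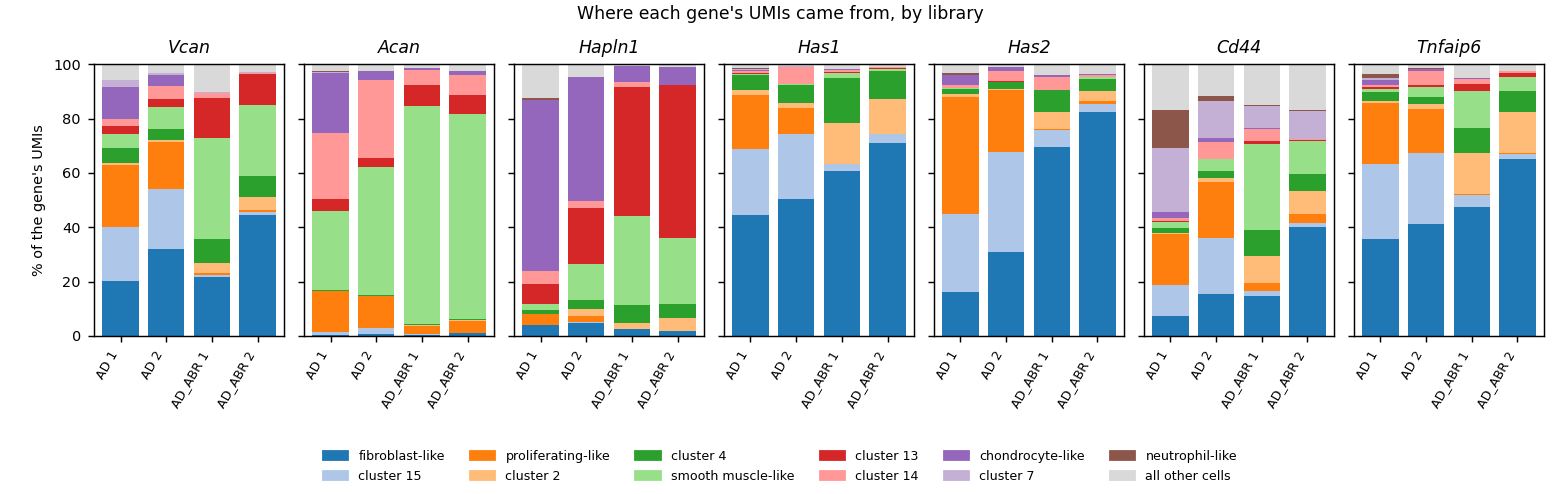
Share of each gene's UMIs that came from each cell class, in percent and by library, stacked to 100. For Has2 the part outside fibroblast-like cells is large in AD and small in AD_ABR, and for Acan the smooth muscle-like part grows from 28.8% and 47.0% in AD to 80.5% and 75.7% in AD_ABR.

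Tnfaip6 followed the same cells as Has1 with a wider spread. Fibroblast-like cells stood at 627, 645, 348 and 444 CPM, a difference that did not overlap and did not pass (-0.66 ± 0.15, edgeR adjusted p = 0.136). Cluster 15 stood at 532, 576, 1379 and 1000 CPM, with both AD_ABR values above both AD values on few cells and no test. Cluster 2 showed next to no difference, at 144, 182, 141 and 179 CPM (-0.00 ± 0.18, edgeR adjusted p = 0.997). Levels in cluster 4, at 117, 141, 89.9 and 99.1 CPM (-0.44 ± 0.14, adjusted p = 0.137), lay beside those of cluster 2.

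The clearest fall of Tnfaip6 was in cluster 13, the Rgs5-rich cells with smooth muscle markers. Its level was 146 and 140.4 CPM in AD and 61.5 and 64.4 CPM in AD_ABR, a fall of 1.23 ± 0.14 on the log2 scale or 2.34-fold (edgeR adjusted p = 0.000533). That call held in all 8 alternatives run for the cluster, with log2 fold changes from -1.25 to -1.17. None of these 8 changed the cell filters or the clustering. Tnfaip6 there was 69.0%, 49.3%, 62.6% and 43.0% of its level over all cells. Fibroblast genes in these cells spread widely on the same scale: Dcn was at 4.93%, 1.51%, 2.76% and 1.44% of its own level, Dpt at 1.74%, 3.04%, 4.93% and 4.71%, Pdgfra at 17.0%, 16.3%, 35.4% and 23.8%, and Col1a1 at 54.3%, 31.4%, 40.8% and 30.1%. The part of free RNA in this call was not tested. The class had 97, 196, 353 and 363 cells.

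Tnfaip6 also fell in 2 classes where it is low. In cluster 7 it went from 22.5 and 16.0 to 6.58 and 4.87 CPM (-1.78 ± 0.35, 3.44-fold, edgeR adjusted p = 0.0187), and the call was lost without AD_ABR replicate 2 (adjusted p = 0.143). In endothelial-like cells it went from 16.1 and 11.2 to 5.25 and 4.10 CPM (-1.52 ± 0.36, 2.86-fold, edgeR adjusted p = 0.0264), and 5 of 12 alternatives lost the call, among them DESeq2 and the removal of either AD_ABR library, with adjusted p up to 0.297. The level in these classes was 2.42% and 1.77% of that in fibroblast-like cells. As a share of the level over all cells it was 10.7%, 5.64%, 6.70% and 3.25% in cluster 7, where Dpt was at 3.86%, 3.68%, 3.13% and 2.61%, Dcn was at 2.30%, 1.76%, 1.75% and 1.499%, and Col1a1 and Pdgfra ranged from 1.83% to 3.69%. In endothelial-like cells it was 7.62%, 3.93%, 5.35% and 2.74%, where Dpt was at 4.20%, 2.86%, 2.78% and 3.43% and Dcn at 17.0%, 14.9%, 6.36% and 6.82%, with Col1a1 and Pdgfra from 1.67% to 4.87%. The part of free RNA in these 2 calls was not tested, nor was that of the cell mix of cluster 7. Macrophage-like cells, with 17.1 ± 4.38 CPM in AD and 4.55 ± 0.957 in AD_ABR (SD, n = 2 each), had the lowest log2 fold change of Tnfaip6 among the classes tested, which did not pass (-1.99 ± 0.36, edgeR adjusted p = 0.128). Different clusters held most of this class in the libraries: cluster 12 had 922 of 1001 cells in AD replicate 1, while cluster 10 had 236 of 326 in AD replicate 2 and 290 of 314 and 645 of 697 in AD_ABR. Within cluster 10 Tnfaip6 stood at 16.1, 11.5, 3.98 and 5.13 CPM (-1.46 ± 0.44, adjusted p = 0.1002).

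**Figure D4:**
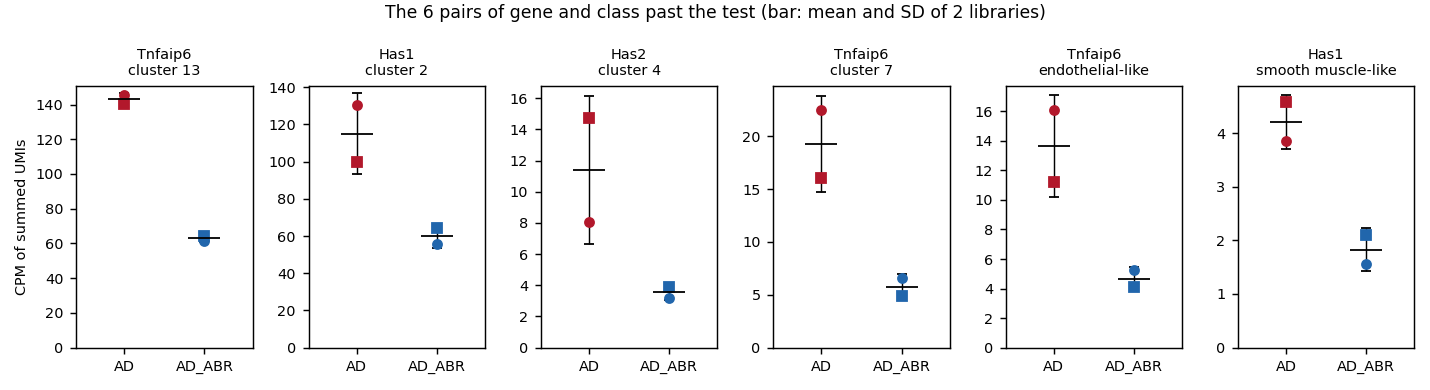
The 6 pairs of gene and class past the edgeR test, in CPM of summed UMIs on axes that start at 0, with 1 point per library and bars at the mean and SD of the 2 libraries of a group. In each panel both AD_ABR libraries lie below both AD libraries, from 146 and 140.4 to 61.5 and 64.4 CPM for Tnfaip6 in cluster 13 and from 3.86 and 4.58 to 1.55 and 2.11 CPM for Has1 in smooth muscle-like cells.

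Vcan was the most widespread core protein gene, with 64095 UMIs in 14387 cells, and no class tested showed a call. Among classes tested it was highest in cluster 13, at 581, 450.1, 568 and 547 CPM (0.07 ± 0.15, edgeR adjusted p = 0.868), where the groups overlapped. Fibroblast-like cells came next at 383, 406, 257 and 356 CPM (-0.34 ± 0.17, edgeR adjusted p = 0.369). Split by cluster after the data were seen, Vcan stood at 293, 192, 140 and 120 CPM in cluster 3 (-0.88 ± 0.20, edgeR adjusted p = 0.0894). In cluster 6 it stood at 557, 591, 461 and 582 CPM (-0.14 ± 0.16, adjusted p = 0.769), with no difference shown from cluster 3 (edgeR adjusted p = 0.734). In chondrocyte-like cells it lay at 834, 613, 90.1 and 84.2 CPM, the AD_ABR values resting on 30 and 8 cells, and was not tested.

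The direction of Vcan was not the same in all classes. Smooth muscle-like cells had 118, 111, 131 and 147 CPM, higher in both AD_ABR libraries (0.35 ± 0.12, edgeR adjusted p = 0.0530). Cluster 4 had 231, 172, 139 and 115 CPM (-0.65 ± 0.15, adjusted p = 0.0592) and cluster 8 had 154, 156, 85.1 and 89.2 CPM (-0.84 ± 0.17, adjusted p = 0.0756), lower in both AD_ABR libraries, as was cluster 7 at 64.4, 33.2, 20.6 and 19.0 CPM (-1.30 ± 0.35, adjusted p = 0.0772). None of these passed in edgeR, and DESeq2 called those of clusters 4 and 7. When smooth muscle-like cells were split by cluster, after the data were seen, Vcan rose in cluster 1, from 118 and 127 to 143 and 175 CPM (0.40 ± 0.11, edgeR adjusted p = 0.0471, where 9.5% of genes were called). In cluster 0 it did not pass (0.27 ± 0.13, adjusted p = 0.223, where 6.91% were called), and the 2 changes were not shown to differ (adjusted p = 0.942). Reads of the 3′ end do not separate the splice forms of Vcan or Cd44, and Vcan overlaps Gm4117 and Gm16318 on the other strand.

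Most Acan of the AD_ABR libraries, but not of AD, lay in smooth muscle-like cells, whose number was higher in AD_ABR (763, 1667, 3346 and 2662 cells). They held 28.8% (26.8 to 30.8) and 47.0% (45.0 to 49.0) of its UMIs in AD and 80.5% (79.1 to 81.8) and 75.7% (73.9 to 77.4) in AD_ABR. Its level in them was 87.6 and 84.0 CPM in AD and 67.2 and 66.6 CPM in AD_ABR, which did not overlap and did not pass (-0.29 ± 0.11, edgeR adjusted p = 0.0914). Cluster 14, at 243, 84.1, 79.7 and 166 CPM, and chondrocyte-like cells, at 209, 59.2, 94.2 and 361 CPM, overlapped between groups and spread widely within them. Cluster 13 had 122, 62.4, 70.1 and 52.7 CPM (-0.55 ± 0.24, adjusted p = 0.296). Fibroblast-like cells held it at 0.699 to 1.53 CPM.

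Of smooth muscle-like cells, cluster 1 held the most in both AD libraries and AD_ABR replicate 1, and cluster 0 in AD_ABR replicate 2. Acan was therefore also read by cluster. In cluster 0 Acan went from 104 and 93.8 to 62.9 and 58.6 CPM, a fall of 0.64 ± 0.11 on the log2 scale (edgeR adjusted p = 0.00210). In cluster 1 it stood at 78.0, 75.6, 69.8 and 83.1 CPM (0.01 ± 0.11, adjusted p = 0.964). The difference between the 2 changes had an unadjusted p of 3.5e-05 and an adjusted p of 0.0933, and did not pass, in a test that called 0.015% of 13294 genes. The clusters were set by expression in these same libraries, the split was chosen after the data were seen, and it was not repeated with single libraries left out.

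Hapln1 was the scarcest of the 7, with 909 UMIs in 566 cells, and passed the filter in 2 classes. In cluster 13 it lay at 33.8, 23.0, 26.5 and 38.1 CPM (0.19 ± 0.26, edgeR adjusted p = 0.792), and in smooth muscle-like cells at 1.19, 1.41, 1.68 and 1.92 CPM (0.49 ± 0.34, adjusted p = 0.356). Chondrocyte-like cells had the highest values, at 101, 49.8, 49.2 and 168 CPM, untested. They held 63.1% (57.9 to 68.2) and 45.7% (37.6 to 54.0) of Hapln1 UMIs in AD, while in AD_ABR cluster 13 held 47.7% (40.5 to 54.9) and 56.3% (49.4 to 63.1). Endothelial-like cells of AD replicate 1 held 37 Hapln1 UMIs, in 3% of those cells, and the other 3 libraries held 0. The gene overlaps Gm8546 on the other strand.

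Cd44 had its highest levels in immune classes. Neutrophil-like cells stood at 1061, 984, 854 and 1249 CPM, on 21 and 10 cells in AD_ABR, and overlapped between groups. Cluster 7 came first among the classes tested, at 869, 547, 432 and 480.1 CPM (-0.61 ± 0.22, edgeR adjusted p = 0.157). Macrophage-like cells had 284, 341, 188 and 242 CPM (-0.61 ± 0.21, adjusted p = 0.248; within cluster 10 of that class -0.64 ± 0.17, 0.0661) and dendritic-like cells 381, 272, 303 and 322 CPM (-0.16 ± 0.20, adjusted p = 0.796), which overlap in level and cannot be ranked. Fibroblast-like cells had 175, 169, 85.9 and 219 CPM, with 1 AD_ABR library below and 1 above both AD libraries. Split by cluster after the data were seen, cluster 6 stood at 254, 243, 102 and 368 CPM (-0.08 ± 0.63, edgeR adjusted p = 0.905). Cluster 3 stood at 128, 78.2, 76.5 and 62.3 CPM (-0.55 ± 0.23, adjusted p = 0.294). Endothelial-like cells had 53.0, 31.4, 21.0 and 27.1 CPM (-0.79 ± 0.25, adjusted p = 0.0858), and smooth muscle-like cells 65.1, 55.1, 55.2 and 46.4 CPM (-0.16 ± 0.12, adjusted p = 0.396). In the classes tested all 12 log2 fold changes of Cd44 were negative, from -1.09 to -0.15. None passed in edgeR (7 had an unadjusted p under 0.05) or in DESeq2. Such an unadjusted p was reached by 2240 of 10764 genes in endothelial-like cells, 2121 of 10412 in cluster 7 and 419 of 5070 in Schwann-like cells. The untested cluster 15 was higher in both AD_ABR libraries, at 312, 328, 443 and 572 CPM. Cd44 overlaps Gm23731 on the other strand.

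Whether a change differs between cell types was tested as an interaction of class and group over the 6 named classes with enough cells. None of the 6 members tested passed, where 2.11% of 15038 genes did, and the lowest adjusted p-values were 0.319 for Acan and 0.358 for Tnfaip6 (edgeR). No change of these genes was therefore shown to belong to 1 of the named classes. Numbered clusters were not in this test, so it cannot say whether the calls in clusters 2, 4, 7 and 13 belong to those cells. Without AD replicate 2, which left 1 AD library, the test did call members, and the 2.11% does not apply to that fit.

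The wider pathway was followed in 63 listed genes, of which 62 are in the files. Over all kept cells 1 of 59 tested genes rose and 3 fell. Chst3, which sulfates chondroitin, rose from 9.32 and 8.72 to 20.9 and 16.1 CPM (1.14 ± 0.17, edgeR adjusted p = 0.0419). Hmmr, a hyaluronan receptor that dividing cells express, fell from 30.9 and 25.5 to 3.52 and 4.51 CPM (-2.71 ± 0.18, adjusted p = 0.0166), beside the lower number of proliferating-like cells given above, whose part was not tested. Cemip2 (-0.99 ± 0.15) and Ptx3 (-1.45 ± 0.23) also fell. In smooth muscle-like cells 3 of 52 tested genes rose and 10 fell, beside the 13% of genes called there, and in endothelial-like cells 1 of 41 rose and 6 fell, beside 5.54%. In cluster 13 the counts were 1 and 3 of 44, beside 1.53%. No listed gene rose and 2 fell in each of clusters 2 (of 46, beside 1.13%), 4 (of 48, beside 1.52%) and 7 (of 36, beside 4.56%), and the share in cluster 7 was near its background. No listed gene of 51 tested passed in fibroblast-like cells. Median log2 fold changes of the listed genes were -0.14 in smooth muscle-like and -0.37 in endothelial-like cells, beside -0.02 and -0.00 for all genes tested in them.

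Ptx3, a partner of TSG-6 in hyaluronan networks, fell in 3 of these classes. It went from 68.9 and 69.6 to 20.5 and 25.9 CPM in cluster 2 (-1.53 ± 0.18, edgeR adjusted p = 0.000595), from 6.83 and 8.45 to 2.02 and 2.22 CPM in smooth muscle-like cells (-1.81 ± 0.23, 8.7e-05), and from 5.36 and 11.2 to 2.25 and 2.46 CPM in endothelial-like cells (-1.94 ± 0.49, 0.0375). Its level as a share of that over all cells, where it fell too, was 3.90%, 3.30%, 2.66% and 3.09% in smooth muscle-like and 3.06%, 4.37%, 2.96% and 3.43% in endothelial-like cells, and the part of free RNA in these 2 calls was not tested. Itih5, of the family of heavy chains that TSG-6 transfers, fell in endothelial-like cells and in the smooth muscle class (-1.53 ± 0.38 and -1.11 ± 0.25), and Itih4 fell in cluster 13 from 204 and 85.4 to 51.8 and 41.9 CPM (-1.58 ± 0.30). Itih4 is also a leading gene of cluster 8.

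Among hyaluronan-degrading genes, Cemip2, a cell-surface hyaluronidase, fell in endothelial-like cells from 308 and 245 to 158 and 132 CPM (-0.96 ± 0.15, edgeR adjusted p = 0.00253). It also fell in cluster 13 (-0.91 ± 0.20) and smooth muscle-like cells (-0.60 ± 0.12). Hyal2, another hyaluronidase, rose in endothelial-like cells from 75.0 and 98.9 to 176 and 153 CPM (0.86 ± 0.17, adjusted p = 0.00875). Of the receptors, Tlr2, an innate sensor that also responds to matrix fragments, fell in cluster 4 from 27.3 and 27.6 to 9.93 and 8.47 CPM (-1.57 ± 0.17, adjusted p = 0.00158), in cluster 2 (-1.40 ± 0.26) and in smooth muscle-like cells (-1.07 ± 0.24), where it was a similar share of its level over all cells in each library (9.80% to 13.9%). Lyve1, the lymphatic and macrophage hyaluronan receptor, rose in cluster 13 from 3.90 and 10.4 to 30.8 and 31.1 CPM (1.89 ± 0.33) and fell in endothelial-like cells from 20.2 and 24.2 to 9.76 and 9.02 CPM (-1.30 ± 0.27). In cluster 13 it was at 17.6%, 44.3%, 117% and 49.1% of its level over all cells. Lyve1 is also a leading gene of the macrophage-like cluster 10, and the part of free RNA in its rise was not tested. Stab1, a scavenger receptor, fell in cluster 7 (-1.08 ± 0.20), and Layn, a hyaluronan-binding lectin, rose in smooth muscle-like cells (0.66 ± 0.14).

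Proteases of aggregating proteoglycans that passed all fell. Adamts1 went from 670.0 and 586 to 275 and 247 CPM in endothelial-like cells (-1.30 ± 0.14, edgeR adjusted p = 0.000181) and from 717 and 512 to 434 and 350.4 CPM in smooth muscle-like cells (-0.57 ± 0.15). Adamts4, an aggrecanase, went from 8.47 and 6.26 to 1.21 and 1.92 CPM in smooth muscle-like cells (-2.16 ± 0.27, adjusted p = 9.5e-05), and Adamts8 fell there by 0.50 ± 0.14 on the log2 scale. Ugdh, which makes the UDP-glucuronate that hyaluronan and chondroitin chains share, fell in cluster 4 (-0.62 ± 0.13) and cluster 7 (-1.09 ± 0.24). In smooth muscle-like cells Uap1, which makes the other hyaluronan precursor, fell (-0.40 ± 0.12) and Gnpnat1, an earlier enzyme on that path, rose (0.50 ± 0.13). Of the genes that build chondroitin sulfate chains, Chsy1 fell in cluster 13 (-0.82 ± 0.19) and smooth muscle-like cells (-0.55 ± 0.12), and Chst11 fell in endothelial-like cells (-0.80 ± 0.22). Xylt2 fell (-0.84 ± 0.18) and Csgalnact1 rose (0.63 ± 0.16) in the smooth muscle class.

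Genes with the most similar pattern were found by Pearson's r of log2(CPM + 5) over 38 sums of a class and library in 12 named classes, among 11300 genes. Sums of 1 library share its depth and free RNA, so these values are descriptions. Has1 was closest to Ms4a4d (0.94), Gfpt2 (0.94) and Adgrd1 (0.93), and Has2 to Medag (0.89), Pdgfra (0.88) and Gfpt2 (0.88). Gfpt2, an enzyme that starts the synthesis of amino sugar precursors, thus stood near both synthases. Tnfaip6 was closest to Dact1 (0.93), F3 (0.92) and Col1a1 (0.91), and Vcan to Ak1, Ccdc80 and Rab23 (0.92 each). Acan was closest to Wnt16 (0.87), Kcnma1 (0.85) and Susd5 (0.83), Hapln1 to Col9a1 (0.90), Cilp2 (0.87) and Chad (0.87), and Cd44 to Runx1 (0.90), Basp1 (0.85) and Lsp1 (0.83). Within the 7, the highest values joined Has1 with Has2 (0.85), Has1 with Tnfaip6 (0.85) and Has2 with Tnfaip6 (0.79), while Cd44 reached at most 0.33 with any of the others.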

How the data were processed

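Droplet single-cell RNA sequencing (10x Genomics, 3′ ends) of ascending aorta gave 4 deposited matrices of raw UMI counts per gene and cell barcode, which hold whole numbers that were not normalized. The submitters' processing notes list STAR, Cell Ranger 6.0, Seurat 4.0 and GRCm38 without an order, and the header of each matrix gives Cell Ranger 7.1.0 as its software. The 7 genes and the pathway lists were chosen with earlier results of these data known.

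Barcodes with at least 200 genes and under 20% mitochondrial UMIs were kept. Doublets were scored with Scrublet (scanpy 1.11.5), and the highest scores were removed at 0.8% per 1000 barcodes, because the caller's own threshold marked 1 barcode in AD replicate 1. Clusters came from 2000 variable genes less the listed genes, 30 principal components, 15 neighbours and Leiden resolution 1.0 (leidenalg 0.10.2, igraph 0.11.9). A cluster was named where at least 3 markers of 1 of 24 lists were in 10% of its cells at a mean log2 fold of 1.0 over other cells, and its 10 leading genes held no more markers of another list. The demand for Higd1b or Vtn in a pericyte name was set after clusters were seen.

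UMI counts were summed per library and class (at least 50 cells in each library) and tested as AD_ABR minus AD with edgeR 4.0.16 in R 4.3.3: TMM factors, filterByExpr, robust quasi-likelihood fits and Benjamini-Hochberg adjustment over all genes of a class at 0.05. SEs are the fold change over the square root of F. The test scripts were tested on simulated data first. DESeq2 1.42.0 was an alternative, beside other scaling factors, no filter on low counts, a replicate block, each library left out, a 10% mitochondrial limit, no doublet removal, resolution 0.5 and clustering with the listed genes. Settings that change the cells or the clusters were not compared for results in numbered clusters. Results by cluster and the set of calls in classes above 10% of the fibroblast-like level were added after seeing the data. Named genes were all 7 members, listed pathway genes past the test in classes with a called member (at most 3 per role and direction, by p) and the 3 most similar genes of each member. Coordinates are from GENCODE M21 (GRCm38) and promoter sequences from RefSeq.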

Additional observations from a re-analysis of the deposited data

How the results depend on the processing

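The count of called pairs varied with the fit and the libraries, and so did the number of genes of any kind called. The 6 pairs called by edgeR became 10 with DESeq2, 19 without the filter on low counts, and 5 to 22 when 1 library was left out; without AD replicate 1 there were 16 and without AD replicate 2 there were 22. Over the clusters of named classes that hold more than 1, a split chosen after seeing the data, 3 pairs of gene and cluster were called, and 3 of the 6 class pairs lay in classes above 10% of the fibroblast-like level. The correlation of deviations of same-numbered libraries was -0.043 over 20196 genes, in all kept cells. With 2 libraries in a group their deviations mirror each other, so this value cannot tell whether replicate numbers pair the libraries. A replicate block gave 18 pairs, beside 142 genes that rose and 259 that fell in fibroblast-like cells. In smooth muscle-like cells 1672 genes rose and 1493 fell with the block. Over all kept cells the count of members called went from 0 to 4 with DESeq2 and 1 without the filter on low counts. Genes that rose and fell there were 1646 and 2057 of 20196 with DESeq2, and 1222 and 1360 of 33943 without the filter. The interaction of class and group went from 0 members to 4 without the filter, where the share of all genes called was not compared. The log2 fold change over all kept cells reversed for Acan without AD_ABR replicate 1 (-0.0030) and for Hapln1 without AD replicate 1 (0.53), with ranges over the libraries left out of -0.0030 to 0.43 and -0.98 to 0.53; neither was called with all libraries. The cause of these shifts was not tested. Of 56 alternatives for the 6 called pairs, 47 kept direction and call, 9 kept direction and lost the call, and 0 reversed. Pairs in numbered clusters had no alternatives that changed the cell filters or the clustering. Of the results not called, 30 were followed: those over all kept cells and the pairs with an unadjusted edgeR p under 0.05. Of their 289 alternatives, 228 stayed uncalled, 59 passed the threshold and 2 reversed. Pairs further from the threshold were not followed. Depth limits Hapln1 and Has2, which had 909 and 5579 UMIs.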
